A study of Mus musculus with 8 samples.

Results

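The cytosolic ribosomal protein genes were taken as the rows of the deposited FPKM table whose symbol follows the Rpl and Rps naming pattern, with the stalk genes Rplp0, Rplp1 and Rplp2 and with Rpsa. The pattern matched 84 of 34745 gene rows, the rule leaves out 1 symbol, and the 83 members are 50 genes of the large and 33 of the small subunit. They lie on 19 chromosomes, with 14 of them on chromosome 7. FPKM counts fragments relative to a gene's exon length and to all mapped fragments, so levels of different genes can be set side by side.

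Messenger RNA came from mouse heart tissue in 8 bulk libraries, all with the strain label Balb/c. The 2 control libraries are wild-type hearts at day 0, which the treatment protocol describes as given complete Freund's adjuvant (CFA) with buffer. The 3 EAM wild-type libraries are wild-type hearts at day 21 of experimental autoimmune myocarditis, an inflammation of the heart raised by immunizing with a peptide of the cardiac alpha myosin heavy chain in CFA. The 3 EAM knockout libraries carry a Trim21 knockout and had the same immunization and day. Trim21 encodes an E3 ubiquitin ligase that binds antibodies in the cytosol, and the study asked how it acts in autoimmune myocarditis. The sources used here do not give how the allele was made, nor the age and sex of the mice. A second deposited sheet names both EAM groups with day 35, where the labels have day 21. Immunization and day changed together between control and EAM, and Trim21 knockout hearts free of disease were not analysed here. The labels do not say that libraries come from separate animals, so p-values cover no more than the library-to-library spread, which may be technical.

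Each cytosolic ribosome is built from a large and a small subunit, in which ribosomal RNA is held by a set of proteins that are nearly all needed in equal number. Many of their messenger RNAs begin with a C followed by a run of pyrimidines, the 5′ terminal oligopyrimidine (TOP) tract, through which the mTOR pathway sets their translation. Ribosomal protein messages have also been copied back into the genome many times, which left intronless copies whose sequence is close to that of the parent gene. Striated muscle has its own version of the large subunit protein Rpl3, called Rpl3l.

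Sequences of 3 kinds bear on the values. The first is a parent gene and an intronless copy that carry the same coding letters. Rps27, on chr3:90212522-90213651 (minus strand, mm10), has 4 exons, and Rps27rt, on chr9:114982371-114982740 (minus strand), has 1. Their 252 coding bases differ at 0 positions, so the first 150 coding bases are shown once for both.
Rps27 and Rps27rt: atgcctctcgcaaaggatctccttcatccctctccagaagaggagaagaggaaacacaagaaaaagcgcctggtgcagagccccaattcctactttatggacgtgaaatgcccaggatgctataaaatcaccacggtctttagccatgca

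The second is a parent and a copy that differ at a few positions. Rps18 (5 exons, chr17:33951999-33956001, minus strand, mm10) and Gm10260 (1 exon, chr13:97760130-97760588, minus strand) differ at 4 of 456 coding bases. A stretch from coding base 282 to 431 is shown because it holds 3 of them, in capitals.
Rps18: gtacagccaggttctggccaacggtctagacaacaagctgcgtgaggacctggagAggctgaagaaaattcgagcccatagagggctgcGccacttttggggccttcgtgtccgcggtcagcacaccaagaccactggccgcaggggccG
Gm10260: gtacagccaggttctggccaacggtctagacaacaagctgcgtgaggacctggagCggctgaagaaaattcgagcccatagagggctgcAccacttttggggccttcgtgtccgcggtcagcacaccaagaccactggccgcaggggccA

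The third is the muscle paralogue, which no copy resembles this closely. Rpl3 (chr15:80077794-80091868, minus strand, mm10) and Rpl3l (chr17:24727820-24736143, plus strand) differ at 262 of 1164 aligned coding bases, an identity of 77.5%. Coding bases 249 to 398 are shown with the 38 differing bases in capitals.
Rpl3: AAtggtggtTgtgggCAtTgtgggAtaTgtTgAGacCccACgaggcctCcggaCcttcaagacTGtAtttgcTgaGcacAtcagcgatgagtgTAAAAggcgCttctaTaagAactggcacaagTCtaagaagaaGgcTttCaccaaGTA
Rpl3l: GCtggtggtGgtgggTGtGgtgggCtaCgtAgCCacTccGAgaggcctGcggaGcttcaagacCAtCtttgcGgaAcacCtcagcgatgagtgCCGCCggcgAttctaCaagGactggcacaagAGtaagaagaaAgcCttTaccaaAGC

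RefSeq start sites (GRCm38.p6) were searched for a TOP tract, written as a C followed by at least 4 bases that are each C or T, read on the gene's strand and beginning within 5 bases of the start. Such a tract stood at 31 of 75 member starts (41.3%), from 29 of 63 member genes found in the RefSeq table, and at 18.3% of 32851 starts of all genes. The tract is shown for 2 members that have it, in capitals, beside Rpl3l, which has none in this window. Each line runs from 60 bases before the start to 30 after it.
Rpl13a (chr7:45128716-45128805, minus strand): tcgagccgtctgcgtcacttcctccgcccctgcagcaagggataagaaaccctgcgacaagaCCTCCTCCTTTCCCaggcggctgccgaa
Rps9 (chr7:3703981-3704070, plus strand): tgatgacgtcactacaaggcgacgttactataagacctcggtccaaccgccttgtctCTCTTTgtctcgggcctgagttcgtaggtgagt
Rpl3l (chr17:24727766-24727855, plus strand): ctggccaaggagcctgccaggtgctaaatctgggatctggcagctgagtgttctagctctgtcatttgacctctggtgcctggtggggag

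Libraries held 14390000 to 16930000 fragments, as inferred from the steps between low values, and 9201 to 9975 genes reached an FPKM of 1. All 7 cardiomyocyte markers were above 0 in each library, with a summed FPKM of 8401 to 11423. Trim21 (chr7:102557922-102565469, mm10) had an FPKM of 0.0481, 0 and 0.022 in EAM knockout 1, 2 and 3. The EAM wild-type libraries had 2.98, 3.29 and 3.37, and the controls 1.98 and 2.18. It was lower in the knockout than in EAM wild type by 2.04 on the log2(FPKM + 1) scale (limma adjusted p = 1.52e-05). The 2 kinds of library that stand apart bear on what follows. EAM wild type 3 had the lowest share of mitochondrially encoded transcripts, 33.6% against 36.5% to 43.6% in the others, where shares are of FPKM weighted by exon length. EAM knockout 1 and 2 and EAM wild type 2 had a summed FPKM of 4007 to 5416 over 8 atrial markers, against 171 to 779 in the other 5 libraries.

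Mean FPKM over the 8 libraries was at least 100 for 13 members, 10 to 100 for 30, 1 to 10 for 23 and under 1 for 17. Among the highest were Rplp1 (421 FPKM), a protein of the stalk that recruits elongation factors, Rps15 (407), Rpsa (344), also known as the laminin receptor, and Rpl8 (324). The lowest were Rpl10l, listed at 0 in every library, Rpl39l (0.0678), Rpl26 (0.096), Rpl9 (0.114) and Rps13 (0.159). Rpl10l and Rpl39l are paralogues known in the mouse from the testis, while Rpl26, Rpl9 and Rps13 are standard parts of every ribosome.

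The low level of many standard members went with shared sequence. For the 82 members with an annotated coding transcript, the share of 50-base coding windows that also occur in the transcripts of another annotated gene was counted in GENCODE M21. All coding windows were shared for 27 members and none for 3. The median share was 100% for the 40 members under 10 FPKM, 85.7% for the 29 members between 10 and 100 FPKM, and 43.5% for the 13 members of at least 100 FPKM. None of those 13 shared all windows, against 21 of the 40 lowest. Across these 82 members Spearman's rho between mean FPKM and shared windows was -0.44, and -0.46 with 100-base windows. The members share libraries and related copies, so this describes the table and has no test. The sources used here do not say how fragments that match several genes were placed.

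**Figure D1:**
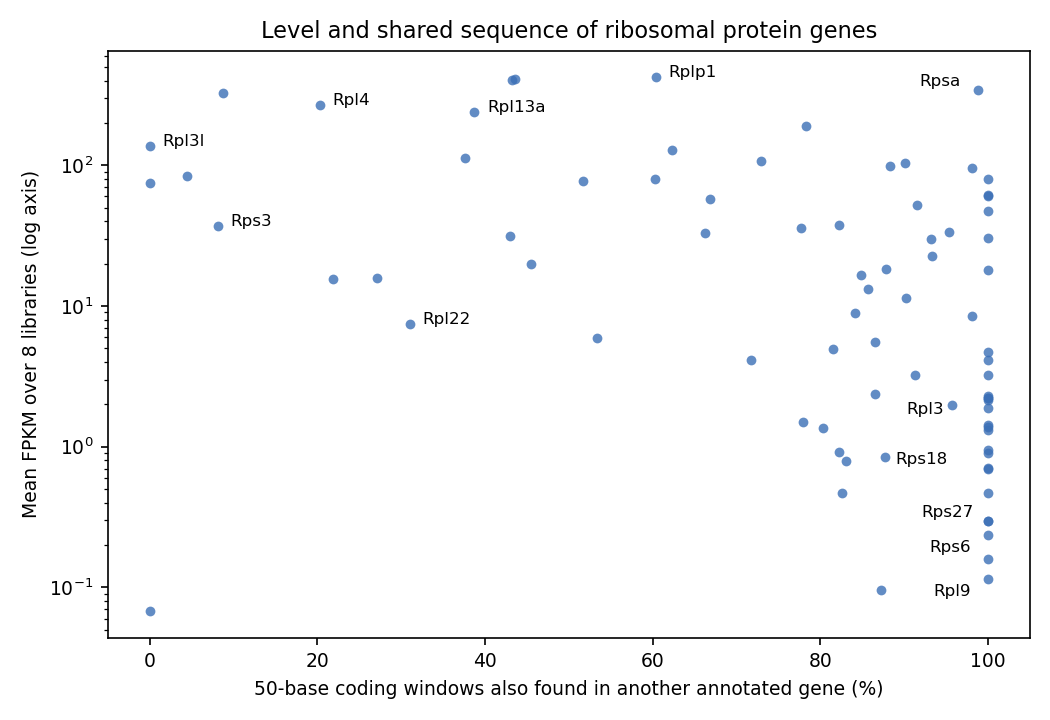
Mean FPKM over 8 libraries (log axis) of ribosomal protein genes against the percentage of their 50-base coding windows found in another annotated gene. Each point is 1 gene, and Rpl10l, at 0 FPKM, is not drawn. Rpl3l, Rpl4 and Rps3, with few shared windows, sit above 10 FPKM, Rpl39l, with none, is at 0.0678 FPKM, and most members under 1 FPKM sit at or near 100%.

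Some members of low level stood beside a copy of high level. For 18 members a copy that shares at least 50% of their coding windows had a mean of at least 10 FPKM, in 16 of these the copy was above the member, and 11 of the 18 members were themselves under 10 FPKM, of 40 such members with a coding transcript. Rps27 had an FPKM of 0.113 to 0.577 in the 8 libraries and Rps27rt 129 to 264. Rpl9 had 0.0367 to 0.165 and Rpl9-ps6, which differs from it at 1 of 576 coding bases, 70.0 to 123. Rps18 had 0.143 to 2.62 and Gm10260 121 to 363. Rpl12 was at a mean of 0.705 FPKM beside Gm10275 at 128, Rpl5 at 2.22 beside Gm15500 at 119, and Rpl11 at 0.296 beside Gm10036 at 77.6. Rpl5 and Rpl11 bind the p53 regulator Mdm2 together with the 5S ribosomal RNA. The FPKM of a member with such a copy is therefore uncertain as a level of its own transcript.

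Between libraries, the members moved together. Of the 70 members that passed the filter of at least 1 FPKM in at least 2 libraries, 61 were highest in EAM wild type 3 and 40 lowest in EAM knockout 2. The median deviation of the members from their own mean over the 8 libraries was 0.40 on the log2(FPKM + 1) scale in EAM wild type 3, beside 0.15 over all 10393 genes tested. It was -0.24 in EAM knockout 2, beside -0.03 over all genes. The other 6 libraries lay between -0.15 and 0.08. The members made up 1.14% of the exon-length-weighted FPKM in EAM wild type 3 and 0.679% to 0.896% in the other 7 libraries. EAM wild type 3 was also the library lowest in mitochondrially encoded transcripts, and the part of that in the members' level was not tested.

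**Figure D2:**
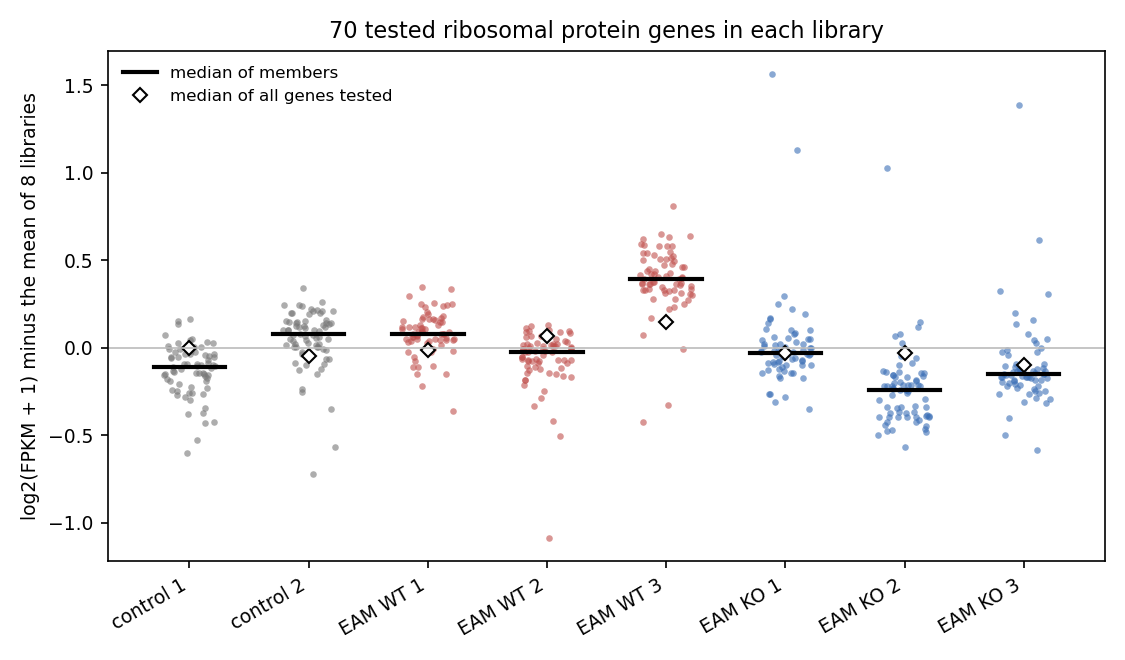
Deviation of each of 70 tested ribosomal protein genes from its own mean over the 8 libraries, on the log2(FPKM + 1) scale. Points are genes, black bars their median in that library and open diamonds the median of all genes tested. Nearly the whole cloud of EAM wild type 3 lies above 0, with a median of 0.40, and most of EAM knockout 2 lies below it.

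EAM wild type was set against control to ask what the model does in wild-type hearts. Most members had higher values in EAM, and none passed the test. The median log2 difference of the 70 tested members was 0.17, against 0.08 over all genes tested, with 63 members above 0, as were 66.7% of all genes, and 7 below. No member was called by limma at an adjusted p under 0.05, where 1.49% of all genes were, and the lowest limma adjusted p among members was 0.192. At an unadjusted p under 0.05 there were 7 members (10%), beside 14.6% of all genes. In 13 members (18.6%) every EAM library was above every control library, beside 24.6% of all genes. With all libraries both shares are below the background of this comparison, and they moved with single libraries. Without control 2, 50 of 70 members did not overlap, beside 34.0% of all genes, and without EAM wild type 2, 38 of 70, beside 29.9%. Leaving out any of the other 6 libraries gave 12 to 17 members, beside 24.6% to 40.7% of all genes, a smaller share of the members each time. Among these were 17 of 70 beside 39.9% without EAM wild type 1 and 15 of 70 beside 40.7% without control 1. Equal FPKM sums without mitochondrially encoded genes gave 26 members, beside 25.8%, and median-ratio scaling 5, beside 16.3%. The members at an unadjusted p under 0.05 ranged from 1 without control 1 to 12 without EAM wild type 2. No share over all genes is given for those fits, so these counts are not read as particular to the members. The median was 0.04 without EAM wild type 3, beside 0.04 over all genes, 0.08 without control 1, 0.27 without EAM wild type 2 and 0.29 without control 2.

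Markers of other heart cells also differed between these groups. The 10 leukocyte markers had a summed FPKM of 15.9 and 18.5 in control and 23.3 to 31.9 with EAM in the wild type. Of the 5 that passed the filter 4 were above 0 and 1 went the other way, by -0.13. Called higher were 2 of the 5, beside 1.49% of all genes called in this comparison. They were Adgre1, by 0.83, and Cd3g, by 0.97 on the log2 scale (limma adjusted p = 0.011 and 0.032). Cd3g had a mean of 1.27 FPKM in EAM wild type and 0.143 in control. It passed the filter through the group where it is high, so its rise adds no support. The 6 fibroblast markers summed to 431 in both controls and 516 to 583 in EAM wild type, with none called. The 5 endothelial markers summed to 253 and 263 against 294 to 366, with none called. Their part in the members' level was not tested, and in bulk tissue fewer cells of a type and less RNA per cell cannot be told apart.

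Rpl22, a large subunit protein needed for alpha-beta T cell development in the mouse, stood highest. Control had an FPKM of 6.17 and 3.85, EAM wild type of 9.18, 7.39 and 13.0, and EAM knockout of 7.82, 7.43 and 4.33. Each EAM wild-type library was above both controls, while the knockout overlapped both groups. The log2 difference of EAM wild type from control was 0.85 (SE 0.28, limma adjusted p = 0.192). Rps3a1 and Rps4x, both of the small subunit, followed. For Rps3a1 the controls had 77.1 and 82.4 FPKM and EAM wild type 99.2, 93.8 and 132, a log2 difference of 0.42 (SE 0.17, limma adjusted p = 0.298). For Rps4x they had 87.7 and 96.7 against 116, 102 and 155, a difference of 0.41 (SE 0.19, limma adjusted p = 0.37).

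Rpl3l was the only tested member with every EAM wild-type library below both controls, beside 6.68% of all genes. Its protein takes the place of Rpl3 in ribosomes of striated muscle. The FPKM was 154 and 152 in control (mean 153 ± 0.991, SD, n = 2). EAM wild type had 127, 112 and 144 (128 ± 16.1, n = 3), and EAM knockout 139, 131 and 142 (137 ± 5.40, n = 3). The log2 difference of EAM wild type from control was -0.27 (SE 0.14, limma adjusted p = 0.434). All 7 cardiomyocyte markers were also below 0 in this comparison, with a median of -0.23 and none called. In 4 of them every EAM wild-type library was below both controls. In EAM knockout against EAM wild type their median was -0.03, with 3 above 0 and 4 below. The part of cardiomyocyte content in the level of Rpl3l was not tested. Rpl27 and Rpl36, the other 2 of the 3 lowest differences, overlapped between the groups. Rpl27, the lowest, beside which the intronless Rpl27-ps3 had 103 to 157 FPKM, had 2.05 and 2.15 in control against 1.71, 0.295 and 3.25 in the diseased wild type (log2 difference -0.33, SE 0.39). Without EAM wild type 2 its difference was 0.13. Rpl36 differed by -0.16 (SE 0.18).

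Within a library, Rpl3l stood against Rpl3 in a ratio that does not depend on the scaling between libraries. Rpl3 itself had 1.68 and 2.00 FPKM in control. It had 2.19, 2.09 and 2.83 with EAM in the wild type, and 1.80, 1.68 and 1.52 in the knockout. The FPKM of Rpl3l per FPKM of Rpl3 was 91.7 and 76.2 in control. EAM wild type had 58.0, 53.6 and 50.9, and EAM knockout 77.2, 78.3 and 93.7. The EAM wild-type ratios were below all others, and those of control and knockout overlapped. The mean log2 ratio was 0.63 lower in EAM wild type than in control (two-sided exact permutation p = 0.2) and 0.61 higher in EAM knockout than in EAM wild type (two-sided exact permutation p = 0.1). Each p is the smallest that its group sizes allow, and both became 0.4 after Benjamini-Hochberg adjustment over 10 tests, so neither passed. Rpl3 shares 95.7% of its 50-base coding windows with other annotated genes and Rpl3l none. The height of the ratio and its differences between groups are therefore uncertain. Rpl3 differed by 0.24 in EAM wild type against control and by -0.33 in EAM knockout against EAM wild type. The members' medians, 0.17 and -0.31, have the same directions. Ratios of Rpl3l to other members were not computed, so the pattern is not shown to be particular to Rpl3. Fibroblast and leukocyte markers were likewise higher in EAM wild type than in either other group, and their part in the ratio was not tested.

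**Figure D3:**
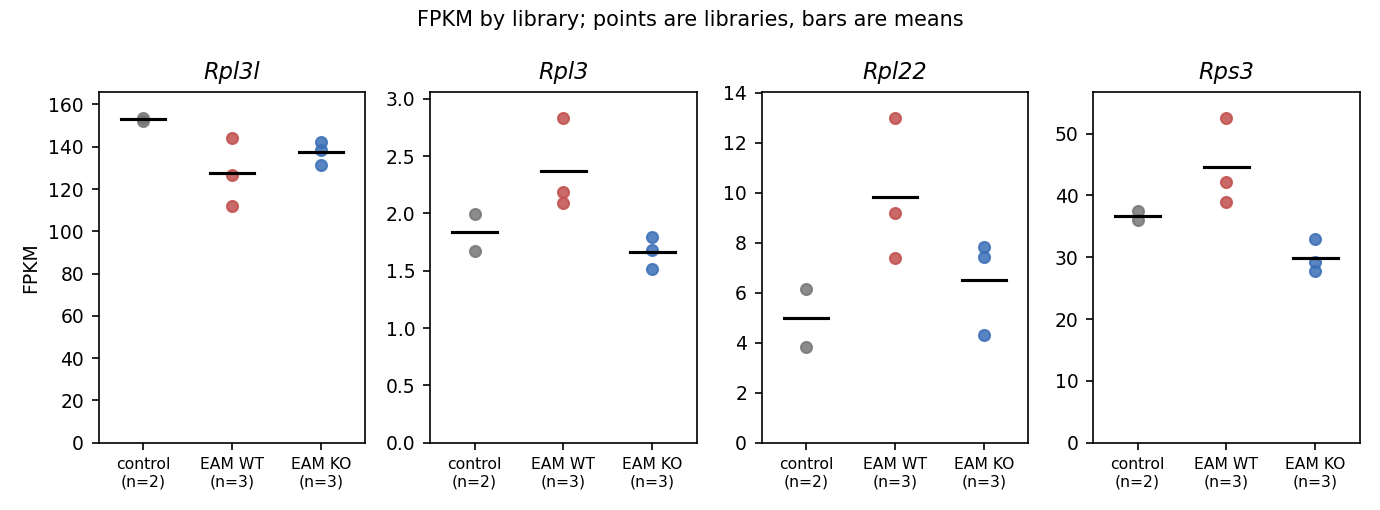
FPKM of Rpl3l, Rpl3, Rpl22 and Rps3 in each library, with 1 point per library and a bar at the group mean, on axes that start at 0. Rpl3l is highest in the 2 controls, while Rpl3, Rpl22 and Rps3 have their highest point, EAM wild type 3, in the EAM wild-type group.

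For the other paralogue pairs the group sizes again allowed no p under 0.2 against control or 0.1 between the EAM groups, so no ratio could pass. Rps27l, induced by p53, had 12.01 to 24.7 FPKM over the 8 libraries, with its partner Rps27 near 0. Rpl7l1 had 12.9 to 21.6 FPKM beside 47.5 to 83.6 for Rpl7, and Rps4l 11.2 to 19.0 beside 85.3 to 155 for Rps4x. Rpl22l1, which can replace Rpl22 in the mouse, stayed at 0.259 to 0.924 FPKM. In these 4 pairs and both comparisons, exact permutation p-values ran from 0.2 to 1. The log2 ratio of Rpl7l1 to Rpl7 had a mean 0.19 higher in EAM wild type than in control, without overlap between libraries (exact permutation p = 0.2, the smallest possible, adjusted p = 0.4). The other 7 ratio differences were between groups that overlapped. Rpl39l and Rpl10l were at 0 in 6 and 8 libraries, so their ratios to Rpl39 and Rpl10 were not tested.

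The comparison of EAM knockout with EAM wild type asks what loss of Trim21 changes in the diseased heart. Most members had lower values in the knockout, and again none passed the test. The median log2 difference of the 70 tested members was -0.31, against -0.12 over all genes tested, with 63 members below 0, as were 72.8% of all genes, and 7 above. No member was called, where 3.09% of all genes were, and the lowest limma adjusted p among members was 0.0661. At an unadjusted p under 0.05 there were 26 members (37.1%), beside 20.0% of all genes. In 28 members (40%) every knockout library was below every EAM wild-type library, beside 22.6% of all genes. No member had every knockout library higher, beside 2.58% of all genes.

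Markers of other heart cells also fell in this comparison. The leukocyte markers summed to 14.9 to 18.1 FPKM in the knockout against 23.3 to 31.9 in EAM wild type. Of the 5 tested, 4 were below 0 and 3 were called lower, beside 3.09% of all genes called in this comparison. The 3 called were the macrophage genes Cd68 (lower by 0.73) and Adgre1 (by 0.58) and the T cell gene Cd3g (by 0.75), with limma adjusted p = 0.0135, 0.0226 and 0.0367. Cd3g, at a mean of 0.334 FPKM in the knockout and 1.27 in EAM wild type, passed the filter through the higher group, so its fall adds no support. The B cell gene Cd79a differed by 0.52 the other way (limma adjusted p = 0.146). The fibroblast markers summed to 276 to 381 FPKM against 516 to 583, and all 6 were below 0, with a median of -0.76. Called lower were 2 of the 6, the matrix genes Dcn (by 0.71) and Lum (by 0.96), with limma adjusted p = 0.0268 and 0.0177. The endothelial markers summed to 279 to 285 against 294 to 366, with none called. All fibroblast and endothelial markers were above 0 in each library, and of the leukocyte markers 1 was at 0 in 1 library, Cd3e in EAM knockout 3. Their part in the members' level was not tested.

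The members' counts moved up with some libraries left out and down with others. Without EAM wild type 2, 48 of 70 members were lower without overlap, beside 30.4% of all genes, and without EAM knockout 1, 43 of 67, beside 32.6%. Leaving out any of the other 6 libraries gave 28 to 32 members, beside 22.7% to 35.3% of all genes. The highest of these shares stood beside 30 of 70 members, without EAM wild type 1. The 26 members at an unadjusted p under 0.05 became 40 without EAM wild type 2, 13 without EAM knockout 3, 8 without EAM wild type 3 and 6 without EAM knockout 2. The share over all genes is not given for those fits, so the counts are not read as particular to the members. Without EAM wild type 3 the median was -0.19, against -0.07 over all genes. Equal FPKM sums without mitochondrially encoded genes gave a median of -0.25 and 30 of 70 members, beside 17.0% of all genes. With median-ratio scaling, which moved the median of all genes to 0.00, the members' median was -0.17 and 7 of 70 members were lower without overlap, beside 10.8% of all genes. Quantile normalization gave -0.17 and 12 members, also beside 10.8%. Without the 3 libraries high in atrial transcripts, which leaves 1 knockout library whose spread is taken from the other groups, the median was -0.41 against -0.17 over all genes.

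The largest differences downward belonged to Rps3, Rpl22 and Rpl13a. Rps3 lines the entry channel of messenger RNA on the small subunit. EAM wild type had 42.1, 39.0 and 52.5 FPKM, EAM knockout 32.9, 27.8 and 29.2, and control 36.0 and 37.4. The knockout lay below both other groups, and its log2 difference from EAM wild type was -0.55 (SE 0.14, limma adjusted p = 0.0661). Rps3 shares 8.09% of its 50-base coding windows with another gene. Its gene lies 3.08 Mb from Trim21, and the 2 tested members within 10 Mb of Trim21, Rps3 among them, differed by -0.55 and -0.19. Of 13 tested members on the whole of chromosome 7 the median log2 difference was -0.33, beside -0.30 for the 57 on other chromosomes. The part of nearness to Trim21 was not tested. Rpl13a, which in human monocytes can leave the ribosome to silence inflammatory messages, had 278, 236 and 345 FPKM in the EAM wild type, against 214, 183 and 197 in the knockout. The log2 difference was -0.51 (SE 0.16, limma adjusted p = 0.126), and the control values of 212 and 263 spanned the gap between these groups. Rpl22 differed by -0.53 (SE 0.25, limma adjusted p = 0.277), with overlap.

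The stalk and the members with known roles outside translation took the same direction with smaller sizes. Rplp0 had 82.6, 79.7 and 98.2 FPKM in EAM wild type against 77.6, 65.4 and 71.1 in the knockout (log2 difference -0.28, SE 0.13). Rplp1 had 466, 391 and 542 against 412, 316 and 367 (-0.35, SE 0.16), and Rplp2 36.0, 30.1 and 41.3 against 31.9, 25.8 and 30.2 (-0.28, SE 0.15). Rplp0 alone of the 3 did not overlap between these groups. Rpsa differed by -0.34 (SE 0.16) and Rps19, which is mutated in the human anaemia named after Diamond and Blackfan, by -0.33 (SE 0.13), both without overlap. Rpl5 differed by -0.27 (SE 0.14), without overlap, and Rps27a, which is made as a fusion to ubiquitin, by -0.23 (SE 0.17), with overlap. Limma adjusted p-values for these 7 genes ran from 0.202 to 0.494. Rps6, the substrate of the S6 kinases, and Rpl11 were under the filter at 0.133 to 0.374 and 0.18 to 0.489 FPKM over the 8 libraries.

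The median differed little by subunit or by TOP tract and was nearer 0 for members of low level. It was -0.30 for 41 large subunit members and -0.32 for 29 small subunit members. It was -0.33 for 24 members with a TOP tract within 5 bases of a RefSeq start and -0.32 for 28 without one there. Tested members not found in the RefSeq table are in neither group. Lack of a tract depends on the annotated start, so this split does not settle whether TOP messages differ from others. By level the median was -0.34 for the 13 members of at least 100 FPKM, -0.33 for the 30 between 10 and 100, and -0.19 for the 27 tested members under 10. The 18 intronless or partial copies of at least 10 FPKM had a median of -0.38, with 17 of 18 below 0 and none called (lowest limma adjusted p = 0.133), and in EAM wild type against control a median of 0.21. Rps27rt had 189, 169 and 264 FPKM in EAM wild type against 168, 129 and 134 in the knockout, with a log2 difference of -0.51 (limma adjusted p = 0.172).

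**Figure D4:**
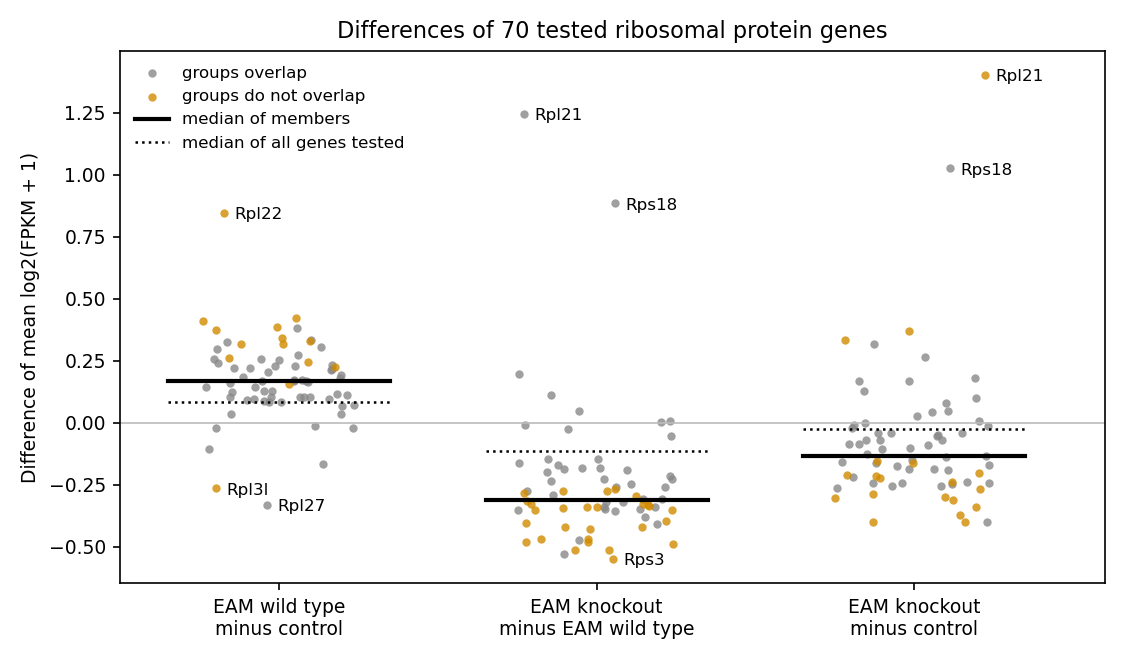
Difference of group means of log2(FPKM + 1) for 70 tested ribosomal protein genes in 3 comparisons, which share libraries. Points are genes, orange where the groups do not overlap, with the members' median (solid line) and the median of all genes tested (dotted line). The members' median is 0.17, -0.31 and -0.14, each farther from 0 than that of all genes on the deposited scale, and Rpl21 and Rps18 stand alone at the top of both knockout comparisons.

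Of the 7 members above 0, Rpl21 and Rps18 had the largest differences, each high in a pair of knockout libraries. Rpl3l, the only 1 of the 7 with a mean of at least 100 FPKM, differed by 0.11 (SE 0.13, limma adjusted p = 0.656), with overlap. Rps18, a small subunit protein next to the decoding site, had 2.62, 2.36 and 0.251 FPKM in EAM knockout 1, 2 and 3, and 0.143 to 0.487 in the other 5 libraries. In the same order its copy Gm10260 had 159.5, 121 and 280 FPKM in the knockout, and 276 to 363 in the others. So in EAM knockout 1 and 2 the parent was above and the copy below every other library, and EAM knockout 3 lay with the wild-type libraries. The log2 difference of knockout from EAM wild type was 0.88 (SE 0.35, limma adjusted p = 0.2) for Rps18 and -0.83 (limma adjusted p = 0.133) for Gm10260. Without EAM knockout 3 both passed, with limma adjusted p = 0.0029 and 0.0231. Only EAM knockout 1 and 2 reached 1 FPKM of Rps18, so it passed the filter through its high libraries alone. The library left out is the knockout library without that pattern, so these p-values add no support. EAM knockout 1 and 2 are also the knockout libraries high in atrial transcripts, and the part of that was not tested. EAM wild type 2, the third such library, had 0.237 FPKM of Rps18 and 276 of Gm10260.

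Rpl21 (chr5:146832890-146837032, mm10), a large subunit protein, split the knockout in another way. It had 4.85, 0.399 and 4.17 FPKM in EAM knockout 1, 2 and 3, and 0.303 to 0.542 in the other 5 libraries. In fragments this is an estimated 247 and 232 in EAM knockout 1 and 3, against 16.7 to 26.5 in the rest. The log2 difference of knockout from EAM wild type was 1.25 (SE 0.45, limma adjusted p = 0.167), and without EAM knockout 2 it was 1.90 (limma adjusted p = 0.000296). Only EAM knockout 1 and 3 reached 1 FPKM, so Rpl21 passed the filter through its high libraries alone. EAM knockout 2 is the knockout library without the high value, so the p-value without it adds no support. BC004004, which shares 53.6% of the coding windows of Rpl21, had 28.8, 24.97 and 27.0 FPKM in the knockout and 18.7 to 29.6 elsewhere, with overlap. The third largest difference upward, 0.20 (SE 0.35), belonged to Rpl27, whose low value in EAM wild type 2 is given above.

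**Figure D5:**
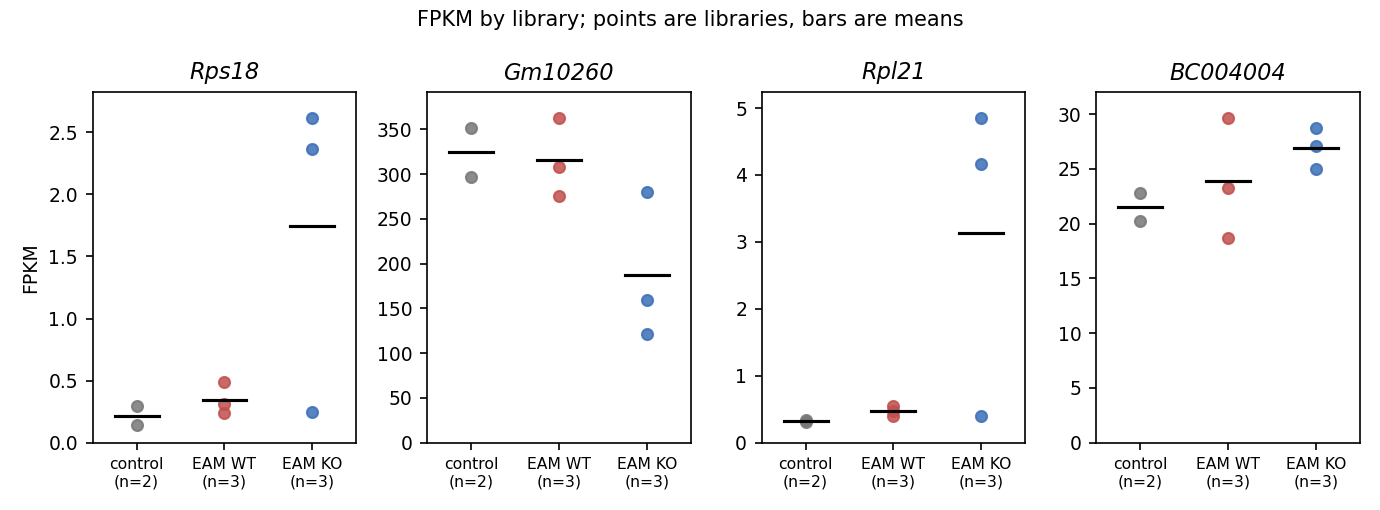
FPKM of Rps18, its copy Gm10260, Rpl21 and the gene BC004004 that shares part of its coding sequence, with 1 point per library and a bar at the group mean, on axes that start at 0. Rps18 reaches 2.62 and 2.36 FPKM where Gm10260 falls to 159.5 and 121, and Rpl21 reaches 4.85 and 4.17 FPKM in EAM knockout 1 and 3.

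The comparison of EAM knockout with control sets the diseased knockout heart against the undiseased wild type. Its median over the 70 members was -0.14, against -0.03 over all genes tested, with 54 members below 0, as were 55.3% of all genes, and 16 above. None was called, where 1.37% of all genes were, and the lowest limma adjusted p was 0.252, for Rpl21. At an unadjusted p under 0.05 there were 4 members (5.71%), beside 13.7% of all genes. In 16 members (22.9%) every knockout library was below both controls, beside 22.4% of all genes, and in 3 it was above, beside 14.1%. Without control 1, 46 of 70 members were lower without overlap, beside 32.9% of all genes, and without EAM knockout 1, 35 of 67, beside 31.9%. Those higher numbered 14 without control 2, beside 21.4%, and 6 without EAM knockout 2, beside 16.3%. They numbered 5 without EAM knockout 3, beside 24.4%, and 5 without control 1, beside 29.5%. The 4 members at an unadjusted p under 0.05 became 11 without EAM wild type 3, 1 without EAM knockout 2, EAM knockout 3 or control 2, and 0 without control 1. For those fits no share over all genes is given, so the counts are not read as particular to the members. The median was -0.04 without control 2, -0.07 without EAM knockout 2 and -0.22 without control 1. With all libraries, the 3 higher members were Rpl21 (log2 difference 1.40, SE 0.50), Rps3a1 (0.37, SE 0.17) and Rps14 (0.33, SE 0.16). Control had 59.3 and 70.8 FPKM of Rps14, EAM wild type 81.9, 72.6 and 92.1, and EAM knockout 92.2, 78.7 and 75.9, so both EAM groups lay above control. At the other end Rpl18, Rpl35 and Rpl37 each differed by -0.40 (SE 0.17, 0.19 and 0.19). Rpl18 had 12.5 and 13.5 FPKM in control and 10.96, 7.90 and 10.2 in EAM knockout.

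Genes that serve the ribosome were looked at beside its proteins. Of 33 tested ribosome assembly factors 1 was called, in EAM knockout against EAM wild type, near the 3.09% of all genes called there. It was Gnl3, a nucleolar GTPase also known as nucleostemin, which fell by 0.48 (SE 0.10, limma adjusted p = 0.0431). Of 14 tested genes of RNA polymerase I, which transcribes ribosomal RNA, 1 was called in that comparison, Polr1e, which fell by 0.42 (SE 0.09, limma adjusted p = 0.0484). Polr1e also fell in EAM knockout against control, by 0.58 (SE 0.10, limma adjusted p = 0.0335). None was called in any of the 3 comparisons among 37 initiation factors, 13 elongation factors, 14 genes of the mTOR pathway and its TOP messages, 5 ribosomal genes outside the name pattern, 77 mitochondrial ribosomal protein genes and 80 nuclear genes of the respiratory chain. At an unadjusted p under 0.05 in EAM knockout against EAM wild type there were 3 of the 37 initiation factors, 4 of 13 elongation factors, 1 of 14 mTOR genes, 3 of 5 ribosomal genes outside the pattern, 1 of 77 mitochondrial ribosomal proteins and 0 of 80 respiratory chain genes, beside 20.0% of all genes. In the same order there were 0, 2, 2, 0, 0 and 4 in EAM wild type against control, beside 14.6%, and 1, 1, 4, 0, 5 and 12 in EAM knockout against control, beside 13.7%. The median log2 difference in EAM knockout against EAM wild type was -0.17 for assembly factors, -0.15 for initiation, -0.18 for elongation, -0.10 for RNA polymerase I and -0.03 for the mTOR genes. It was -0.09 for mitochondrial ribosomal proteins and -0.08 for the respiratory chain, against -0.31 for the cytosolic ribosomal proteins. In EAM wild type against control the mitochondrial ribosomal proteins had a median of -0.09 and the respiratory chain of -0.18, below 0 where the cytosolic members had 0.17. In EAM knockout against control all 3 lists were below 0, with medians of -0.16, -0.24 and -0.14 in that order. Every knockout library was below both controls in 44.2%, 68.8% and 22.9% of their genes, beside 22.4% of all genes. No test of the difference between lists was made.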

How the data were processed

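Heart RNA was made into bulk messenger RNA libraries, per the labels' protocols. The authors deposited FPKM values for mm10, and HISAT2 2.0.4, edgeR and StringTie 1.3.3b stand in the submitters' processing notes with no roles. The annotation, the use of strand and the placing of multiply matching fragments are not stated there. A second sheet with earlier library names served for those names only. Depth was inferred from the whole-fragment steps of low FPKM with GENCODE M21 exon lengths, known for 98.6% of rows. No depth-based interval is given.

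Genes that reached an FPKM of 1 in 2 or more libraries (10393 kept, 24352 removed) entered limma (3.58.1, R 4.3.3). The scale was log2(FPKM + 1), which understates changes of low genes, with a mean-variance trend, 3 groups in 1 fit with 5 residual degrees of freedom, and Benjamini-Hochberg adjustment over all genes tested at 0.05. The fit was tested on simulated data. Paralogue ratios were compared by exact permutation. Replicate numbers of the labels do not match the numbers in the earlier names and were not used as pairs.

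Members, lists and tests were chosen with earlier results of these data known. Genes named are Trim21, the 3 largest differences either way per comparison, the 5 highest and lowest levels, paralogues with partners, the stalk, members with known other roles, and up to 2 called genes of each other list. Copies of members, Rps14, Rpl34, Rpl12, Cd3g, Cd3e and Cd79a were named after their values were seen. Alternatives covered the pseudocount, the filter, the scaling, the trend, the groups fitted, a replicate block, atrial content and leaving out each library. Some genes that the naming pattern or these rules also match are not reported here.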

Additional observations from a re-analysis of the deposited data

How the results depend on the processing

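No ribosomal protein gene was called under 12 alternatives other than leaving out a library. Leaving out 1 library gave 0 or 1 call in both knockout comparisons, and 0 in EAM wild type against control. The single calls were Rpl21 without EAM knockout 2 (log2 1.90 against EAM wild type and 2.06 against control), Rps18 without EAM knockout 3 (1.38 and 1.52), and Rpl34 without EAM wild type 2 (-0.66, limma adjusted p = 0.038, against -0.49 and 0.111 with all libraries). Rpl21 and Rps18 passed the filter only through knockout libraries with high values. Each was called when the knockout library without such a value was left out, so neither call adds support. The members' median kept its sign in each alternative and moved by less than 0.20, the pooled SD of the libraries' member medians. That SD is larger than the medians of 0.17 in EAM wild type against control and -0.14 in EAM knockout against control. A full loss of either would stay within it, so it does not show that these medians are stable. Leaving out libraries gave 0.04 to 0.29, -0.39 to -0.19 and -0.22 to -0.04 in EAM wild type against control, EAM knockout against EAM wild type and EAM knockout against control. Of 20 gene results, 19 kept their direction. Rpl21 and Rps18 were tested in 16 alternatives only, since they fell below the filter in the others. Rpl27 in EAM wild type against control turned from -0.33 to 0.13 without the libraries high in atrial transcripts and to 0.0903 with atrial score as covariate, and ran from -0.73 to 0.13 when each library was left out, where the cause was not tested.

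Scaling moved the median of all genes in EAM knockout against EAM wild type from -0.12 to 0.00 with median ratios and to 0.01 with quantiles. Members above and below 0 were then 10 and 60, against 7 and 63, and in EAM wild type against control 49 and 21 with median ratios, against 63 and 7.

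The labels do not say that libraries of the same number are paired. The deviations of same-numbered EAM knockout and EAM wild-type libraries correlated at -0.09, 0.35 and 0.31. Those of different numbers ran from -0.50 to 0.26, below 0.35 and 0.31 and around -0.09. These values do not decide whether the numbers pair libraries. With the replicate block no member was called, and the median was 0.10, -0.31 and -0.21 in the 3 comparisons in the order above. Genes called overall went from 155, 321 and 142 to 119, 253 and 122 with the block, and leaving out control 1 left 15 in EAM wild type against control.

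The log2 ratio of Rpl3l to Rpl3 stayed between -0.76 and -0.49 in EAM wild type against control, and between 0.52 and 0.66 in EAM knockout against EAM wild type, when each library was left out. Of the 8 smaller ratio differences, 4 kept their sign and 4 changed it when 1 library was left out. Rpl22l1 to Rpl22 ran from -0.47 to 0.0309 and Rps27l to Rps27 from -0.83 to 0.12 in EAM wild type against control. Rps27l to Rps27 ran from -0.48 to 0.47 and Rpl7l1 to Rpl7 from -0.0814 to 0.0809 in EAM knockout against EAM wild type. Depth limits Rps27, whose FPKM stands for an estimated 1.8 to 8.7 fragments per library.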
